A study of Homo sapiens with 9 samples.

Results

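The genes described here are 10 enzymes of the aldo-keto reductase (AKR) and aldehyde dehydrogenase (ALDH) superfamilies, chosen by name: AKR1A1, AKR1B1, AKR1B10, AKR1C1, AKR1C2 and AKR1C3, and ALDH1A1, ALDH1A3, ALDH3A1 and ALDH3A2. They were chosen with earlier results of these data known. All 10 had a row among the 16630 genes of the FPKM table (fragments counted per unit of transcript length and of library size). RNA was taken from H1650, a line established from a lung adenocarcinoma, 3 days after siRNA was delivered by lipid transfection at 20 nM. In the siMENA11a group the siRNAs, used as a mix, matched exon 11a of ENAH, the exon that marks the epithelial isoform of the actin regulator hMENA. The siMENA group received an siRNA pool against all ENAH transcripts, and the control group a pool that targets no human gene. Each group had 3 libraries, labelled as biological replicates of 1 cell line, and n = 3 per group below unless another number is given. Each silencing reagent was a mixture, so no value belongs to a single siRNA.

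Aldo-keto reductases use NADPH to turn aldehydes and ketones into alcohols, and aldehyde dehydrogenases use NAD or NADP to oxidise aldehydes to acids. Between them they clear reactive aldehydes from lipid peroxidation, interconvert active and inactive steroids and prostaglandins, and set how much retinal becomes retinoic acid. In airway epithelium and lung cancer several of them are known targets of NRF2, the transcription factor that the adaptor KEAP1 holds back until electrophiles or oxidants modify it. The AKR1C genes lie side by side on chromosome 10, and AKR1B1 and AKR1B10 are neighbours on chromosome 7.

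All ENAH levels under silencing lay below the lowest control value. ENAH stood at 9.98, 11.0 and 10.3 FPKM in siMENA11a, 4.43, 5.79 and 5.57 FPKM in siMENA and 26.1, 30.04 and 26.1 FPKM in control libraries. Epithelial genes were abundant, with means over all libraries of 1446 FPKM for KRT8, 1173 FPKM for KRT18 and 151 FPKM for EPCAM. The surfactant genes SFTPB and SFTPC averaged 0.188 and 0.0802 FPKM, and the lung lineage genes NKX2-1, SCGB1A1 and NAPSA had no value analysed here. Of 11 epithelial markers, 8 had values, and their summed level ran from 3939 to 4425 FPKM in siMENA11a, 4693 to 4893 in siMENA and 4820 to 5135 in control libraries. Of 7 fibroblast markers, 4 had values, and their sum ran from 54.1 to 73.5 FPKM in siMENA11a, 62.6 to 85.8 in siMENA and 76.6 to 86.3 in control libraries. That sum was mostly FBLN1, while COL1A1, COL1A2 and COL3A1 averaged under 1 FPKM. The leukocyte sums, from 3 of 6 markers, overlapped among groups (15.1 to 20.2 in siMENA11a, 13.7 to 16.7 in siMENA and 14.4 to 19.3 FPKM in control). So did the endothelial sums from 4 of 5 markers (33.0 to 37.9, 36.6 to 42.7 and 35.1 to 48.3 FPKM in the same order of groups). The endothelial sum was nearly all EGFL7 (mean 38.2 FPKM), while PECAM1, VWF and CDH5 averaged 0.0404, 0.0620 and 0.233 FPKM. The leukocyte sum was mostly CD68 (11.9 FPKM) and CD14 (4.12 FPKM), with LYZ at 0.113 FPKM. The leukocyte marker PTPRC and T cell marker CD3E had no value analysed here. Every listed gene had a value in control replicate 1, while each other library lacked 411 to 592 values. A gene without a value in control replicate 1 is thus not listed, so a gene that is not listed cannot be called absent from the other libraries. The part that these sums play in the results below was not tested. In such bulk samples fewer cells expressing a gene and less RNA per cell cannot be told apart. Read counts are lacking, so how many reads each library holds is unknown. Steps between low values put the relative depth of the other libraries at up to 1.61 times that of control replicate 1, which was the shallowest.

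The promoters of the AKR1C genes are shown because AKR1C3 had the largest difference between groups of the 10 genes and because AKR1C1 and AKR1C2 are near copies. Sequences are from RefSeq on GRCh38.p14 and run 5′ to 3′ on the strand of the gene, from 250 bases before the annotated start to 50 after it. Capitals mark CCAAT read on the opposite strand. AKR1C1 lies at chr10:4963165-4963464 (plus strand), AKR1C2 at chr10:5003808-5004107 (minus strand) and AKR1C3 at chr10:5048531-5048830 (plus strand).
AKR1C1: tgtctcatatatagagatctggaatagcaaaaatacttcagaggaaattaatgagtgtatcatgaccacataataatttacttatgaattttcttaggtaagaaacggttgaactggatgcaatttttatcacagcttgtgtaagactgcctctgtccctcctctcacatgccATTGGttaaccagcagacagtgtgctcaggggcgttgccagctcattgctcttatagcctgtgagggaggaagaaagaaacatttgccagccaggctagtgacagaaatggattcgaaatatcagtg
AKR1C2: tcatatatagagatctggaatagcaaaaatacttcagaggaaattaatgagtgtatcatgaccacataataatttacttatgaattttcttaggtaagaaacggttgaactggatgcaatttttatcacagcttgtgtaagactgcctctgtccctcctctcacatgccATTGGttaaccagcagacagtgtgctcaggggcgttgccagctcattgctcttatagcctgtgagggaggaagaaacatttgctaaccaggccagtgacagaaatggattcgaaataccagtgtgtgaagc
AKR1C3: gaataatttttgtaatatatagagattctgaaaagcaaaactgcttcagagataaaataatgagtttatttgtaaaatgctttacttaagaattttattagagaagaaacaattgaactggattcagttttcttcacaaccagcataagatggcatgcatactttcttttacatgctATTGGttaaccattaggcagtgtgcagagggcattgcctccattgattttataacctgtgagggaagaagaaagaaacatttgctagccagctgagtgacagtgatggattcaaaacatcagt
Aligned with gaps, 288 of 300 bases of the AKR1C1 promoter were identical in AKR1C2 (96.0%) and 227 in AKR1C3 (75.7%). The inverted CCAAT word begins 77 bases before the start of AKR1C1, 81 before that of AKR1C2 and 73 before that of AKR1C3. Searched on both strands, CCAAT was found in 35.7% of 27305 promoters of the same length. Of the 10 genes, 8 had a promoter in the RefSeq table (AKR1B10 and ALDH3A1 did not), and 6 of these 8 held the word. TATAAA, the TATA box, was in 12.0% of all promoters and, of the 8, only in AKR1C3 on the opposite strand. TGACNNNGC, the core of the antioxidant response element that NRF2 binds, was in 13.6% of all promoters and in none of the 8. A lack of these letters covers this window alone.

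The 10 genes spanned a wide range of expression. AKR1B1, aldose reductase, which turns glucose into sorbitol, was the most abundant of them, at a mean of 110.6 FPKM over the 9 libraries. It was followed by ALDH1A3, a retinal dehydrogenase that makes retinoic acid (88.3 FPKM), ALDH3A2, which oxidises long-chain fatty aldehydes (74.97 FPKM), and AKR1A1, a broad aldehyde reductase (35.8 FPKM). These 4 stood above 85.3% or more of all listed genes. AKR1B10, a reductase of retinal and lipid aldehydes, averaged 3.64 FPKM. The prostaglandin and androgen reductase AKR1C3 averaged 1.35 FPKM, ALDH3A1, which oxidises aldehydes of lipid peroxidation, 0.774 FPKM and ALDH1A1, another retinal dehydrogenase, 0.762 FPKM. The steroid reductases AKR1C1 and AKR1C2 were lowest, at 0.464 and 0.118 FPKM. AKR1C1 and AKR1C2 did not pass the filter of a mean of at least 0.5 FPKM, and control replicate 3 had no value for AKR1C1, so 8 of the 10 genes were tested. In this order the ranges over libraries of neighbouring genes overlapped, except that AKR1A1 (29.6 to 46.1 FPKM) lay apart from both ALDH3A2 and AKR1B10.

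**Figure D1:**
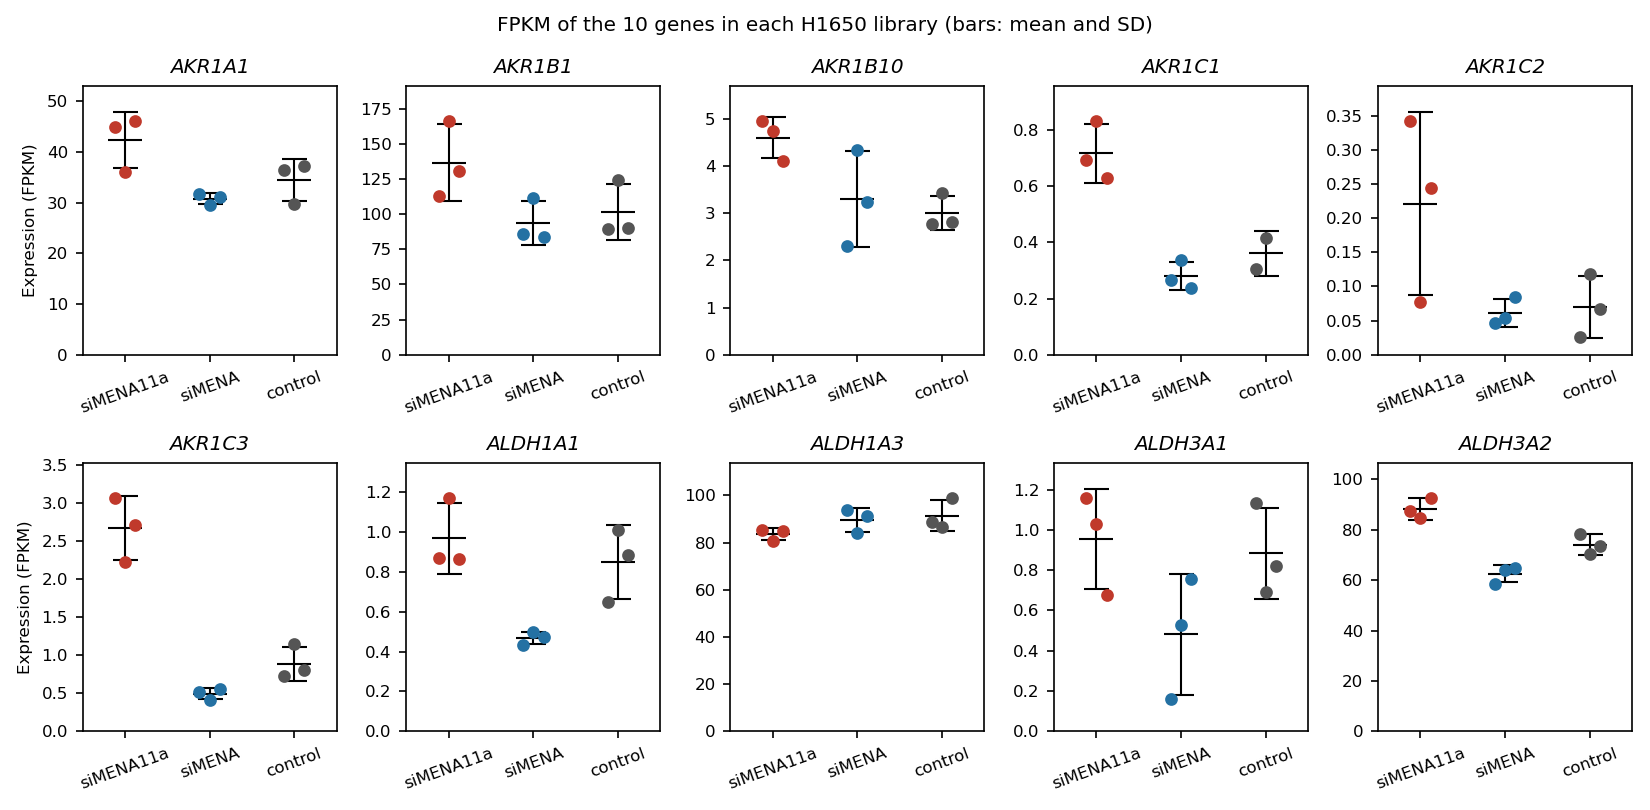
Expression in FPKM (vertical axes, each from 0) of the 10 genes in every library of the siMENA11a, siMENA and control groups; points are libraries and bars the mean and SD. AKR1C3 lies at 2.23 to 3.07 FPKM in siMENA11a libraries, above the 0.411 to 0.555 of siMENA and the 0.725 to 1.14 of control, whereas the ranges of ALDH3A1 overlap.

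AKR1C3 separated all 3 groups. It was expressed at 3.07, 2.23 and 2.72 FPKM in siMENA11a, 0.514, 0.411 and 0.555 FPKM in siMENA and 0.725, 1.14 and 0.801 FPKM in control libraries. Every siMENA11a library was above, and every siMENA library below, every control library. The mean in siMENA11a was 3.01 times that in control and 5.42 times that in siMENA, and the mean in siMENA was 0.555 times that in control. On the log2(FPKM + 1) scale, which understates changes of genes this low, AKR1C3 rose by 0.96 (SE 0.12) with siMENA11a against control, with a limma adjusted p of 0.000686. Against siMENA it was higher with siMENA11a by 1.29 (SE 0.12, adjusted p 4.40e-05). The difference of siMENA against control was -0.33 (95% interval -0.59 to -0.08) and did not pass (adjusted p 0.0711). It passed with a pseudocount of 0.1 (-0.72, adjusted p 0.0348; 0.0348 to 0.198 over the alternatives).

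AKR1C1 and AKR1C2, which reduce progesterone and dihydrotestosterone to weaker steroids, had low values in the same libraries. AKR1C1 was at 0.692, 0.831 and 0.627 FPKM in siMENA11a, 0.265, 0.337 and 0.238 FPKM in siMENA and 0.304 and 0.417 FPKM in the 2 control libraries with a value. Every siMENA11a library was above every library of the other groups. AKR1C2 was at 0.342, 0.0775 and 0.244 FPKM in siMENA11a, 0.0460, 0.0539 and 0.0845 FPKM in siMENA and 0.0262, 0.118 and 0.0667 FPKM in control libraries, with overlapping ranges. In a fit added after the values were seen, without the filter and with the missing value left out, AKR1C1 was higher in siMENA11a than in control by 0.34 (adjusted p 0.0173, 2 control libraries) and than in siMENA by 0.42 (adjusted p 0.00204). AKR1C2 differed by 0.19 (adjusted p 0.132) and 0.20 (adjusted p 0.0769) in that fit. An exact two-sided permutation test cannot go below p = 0.1 with 3 against 3 libraries.

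Reads of the AKR1C genes can be assigned to the wrong copy. Of the 75-base stretches of annotated AKR1C2 transcripts (GENCODE 29), as long as 1 read, 35.4% also occur in AKR1C1, and 6.17% of those of AKR1C3 occur in some other gene. Of those of AKR1C1, 20.6% occur in AKR1C2. How the authors' counting divided such reads is not given in the sources used here, so the split between AKR1C1 and AKR1C2 is uncertain. Summed over the 3 genes, the level was 4.11, 3.14 and 3.59 FPKM in siMENA11a, 0.825, 0.802 and 0.878 FPKM in siMENA and 1.06, 1.68 and 0.868 FPKM in control libraries, the last without AKR1C1. The siMENA11a sums were above all others.

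AKR1B10 reached its highest mean in siMENA11a. It was at 4.95, 4.74 and 4.12 FPKM in siMENA11a, 2.31, 4.35 and 3.25 FPKM in siMENA and 2.78, 3.43 and 2.82 FPKM in control libraries. All siMENA11a libraries were above all control libraries, but siMENA replicate 2 lay within the siMENA11a range. The log2 fold change of siMENA11a against control was 0.48 (95% interval 0.14 to 0.83) and missed the threshold (adjusted p 0.0522; 0.0176 to 0.141 over the alternatives). It passed without siMENA replicate 1 (adjusted p 0.0205) or without siMENA replicate 2 (0.0221), which enter only through the shared spread, and with only the groups compared (0.0176), median-ratio scaling (0.0445), quantile normalization (0.0361) or a filter of 2 FPKM (0.0493). Against siMENA it was 0.41 (0.06 to 0.75, adjusted p 0.0631), and 0.58 without siMENA replicate 2 (adjusted p 0.0109; 0.0109 to 0.204 over the alternatives). With median-ratio scaling that difference had an adjusted p of 0.0442 and with quantile normalization 0.0339. For siMENA against control it was 0.08 (-0.26 to 0.42, adjusted p 0.761), and -0.09 without siMENA replicate 2.

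The neighbouring paralog AKR1B15, which is not among the 10, shares 4.75% of the 75-base stretches of AKR1B10, and its value is uncertain for the same reason. AKR1B15 was at 4.58, 4.19 and 5.27 FPKM in siMENA11a, 2.32, 1.91 and 2.20 FPKM in siMENA and 2.84, 3.39 and 3.21 FPKM in control libraries, with no overlap among groups. It rose by 0.45 with siMENA11a against control (SE 0.10, adjusted p 0.0101) and fell by 0.40 with siMENA against control (SE 0.10, adjusted p 0.0173). The fall lost its call without control replicate 2, control replicate 3 or siMENA replicate 2 (adjusted p 0.0560, 0.0612 and 0.0633). AKR1B10 made up 52.0%, 53.1% and 43.9% of the sum of both genes in siMENA11a, 49.9%, 69.5% and 59.6% in siMENA and 49.5%, 50.3% and 46.8% in control libraries. That sum was 9.53, 8.93 and 9.38 FPKM in siMENA11a, 4.63, 6.25 and 5.44 FPKM in siMENA and 5.62, 6.82 and 6.03 FPKM in control libraries. As a sum, siMENA11a again stood above both other groups.

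AKR1B1 and AKR1A1 were higher with siMENA11a than with siMENA. AKR1B1 was at 113, 166 and 131 FPKM in siMENA11a, 85.5, 111 and 84.0 FPKM in siMENA and 89.7, 124 and 90.4 FPKM in control libraries. In each group replicate 2 was the highest, and siMENA11a overlapped control but not siMENA. The log2 fold change was 0.53 (SE 0.17, adjusted p 0.0321) against siMENA. That call ended without siMENA replicate 1 (adjusted p 0.103), siMENA replicate 3 (0.1001), siMENA11a replicate 2 (0.0937) or siMENA11a replicate 3 (0.0618), and in the fit added after the values were seen, with missing values kept and no filter (0.0553; 0.000228 to 0.103 over the alternatives). Against control AKR1B1 differed by 0.42 (95% interval 0.05 to 0.80, adjusted p 0.109), and by 0.58 without control replicate 2 (adjusted p 0.0468). For siMENA against control the difference was -0.11 (-0.49 to 0.27, adjusted p 0.691), and 0.04 without control replicate 2.

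AKR1A1 was at 44.8, 36.1 and 46.1 FPKM in siMENA11a, 31.7, 29.6 and 31.1 FPKM in siMENA and 36.3, 29.7 and 37.2 FPKM in control libraries. Here replicate 2 was the lowest of each group. AKR1A1 was higher with siMENA11a than with siMENA by 0.44 (SE 0.10, adjusted p 0.00888). The difference from control was 0.29 with siMENA11a (0.06 to 0.52, adjusted p 0.0794), and 0.40 without siMENA11a replicate 2 (adjusted p 0.0176). With siMENA it was -0.15 (-0.38 to 0.08, adjusted p 0.349).

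Among the aldehyde dehydrogenases, ALDH3A2, the enzyme mutated in Sjögren-Larsson syndrome, passed in all comparisons. It was at 87.5, 84.5 and 92.8 FPKM in siMENA11a, 58.6, 64.2 and 64.9 FPKM in siMENA and 78.5, 70.3 and 73.4 FPKM in control libraries, and no 2 groups overlapped. ALDH3A2 rose by 0.25 with siMENA11a (SE 0.06, adjusted p 0.0211) and fell by 0.24 with siMENA (SE 0.06, adjusted p 0.0256), both against the same control libraries. Between siMENA11a and siMENA the log2 fold change was 0.49 (SE 0.06, adjusted p 0.000316), a call that held in all alternatives that included the gene. The rise ended without siMENA11a replicate 1 (adjusted p 0.0541), siMENA11a replicate 3 (0.0605), control replicate 2 (0.0748) or control replicate 3 (0.0701). The fall ended without siMENA replicate 1 (0.1003), siMENA replicate 2 (0.0528), control replicate 1 (0.0911) or control replicate 3 (0.0712).

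ALDH1A1 was lowest with siMENA. It was at 0.868, 1.17 and 0.865 FPKM in siMENA11a, 0.434, 0.497 and 0.471 FPKM in siMENA and 0.649, 1.01 and 0.885 FPKM in control libraries. All siMENA libraries were below all others, while siMENA11a and control overlapped. The mean with siMENA11a was 2.07 times that with siMENA (log2 fold change 0.42, SE 0.10, adjusted p 0.0109). For siMENA against control the mean ratio was 0.551 and the log2 fold change -0.33 (95% interval -0.56 to -0.10), which missed the threshold narrowly (adjusted p 0.0535). With the replicate number as a block, which the pairing check allowed for this comparison, the adjusted p was 0.0303. It also passed without control replicate 1 (-0.41, adjusted p 0.0402) or without siMENA11a replicate 2 (0.0421), with a pseudocount of 0.1 or 0.5 (0.0389 and 0.0467), with either scaling (0.0459 and 0.0356), without the filter (0.0363) and without the variance trend (0.0321). With siMENA11a against control the difference was 0.09 (-0.14 to 0.32, adjusted p 0.583).

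ALDH1A3 and ALDH3A1 passed in no comparison. ALDH1A3, the abundant retinal dehydrogenase, was at 85.5, 80.6 and 85.0 FPKM in siMENA11a, 94.0, 84.1 and 91.1 FPKM in siMENA and 88.7, 86.7 and 99.1 FPKM in control libraries. All siMENA11a libraries were below all control libraries, by little. Its intervals were the narrowest after ALDH3A2, with log2 fold changes of -0.12 for siMENA11a against control (-0.27 to 0.02) and -0.03 for siMENA against control (-0.17 to 0.12). ALDH3A1 was at 1.16, 1.03 and 0.679 FPKM in siMENA11a, 0.159, 0.529 and 0.757 FPKM in siMENA and 1.13, 0.694 and 0.821 FPKM in control libraries. Its ranges overlapped between siMENA11a and each other group and between siMENA and control. The differences were 0.05 for siMENA11a against control (-0.31 to 0.42), -0.36 for siMENA against control (-0.72 to 0.01) and 0.41 for siMENA11a against siMENA (0.05 to 0.78, adjusted p 0.0736). The last passed without siMENA replicate 3 (0.55, adjusted p 0.0345).

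Counted over the 8 genes tested, siMENA11a against siMENA gave 5 that were higher and none lower at an adjusted p below 0.05, while 14.4% of all 13273 genes tested were called higher. The same 5 had no overlap between these groups, against a background of 19.2%. No gene of the 8 lay wholly below siMENA, where the background was 28.6%. The 5 are AKR1A1, AKR1B1, AKR1C3, ALDH1A1 and ALDH3A2. Their number was 3 without AKR1C3 and ALDH1A1, which a filter of 2 FPKM removes. For siMENA11a against control, 2 of 8 were higher (AKR1C3 and ALDH3A2), against 8.16% of all genes. In that comparison 3 of 8 lay wholly above control (background 16.6%) and 1 of 8 wholly below (background 20.2%). For siMENA against control, 1 of 8 was lower (ALDH3A2), against 8.24% of all genes, and 3 of 8 lay wholly below control (background 16.3%). None was called higher, and none lay wholly above control (background 23.8%). The count of 1 lower gene with siMENA was 0 when siMENA replicate 1, siMENA replicate 2 or control replicate 3 was left out. It was 2 (ALDH1A1 and ALDH3A2) with the replicate block, which the pairing check allowed for this comparison. With that block 1409 of all genes were called lower. The count of 2 higher genes with siMENA11a was 1 when siMENA11a replicate 1, siMENA11a replicate 3 or control replicate 3 was left out. By the F test over the 3 groups 4 of 8 differed, AKR1A1, AKR1C3, ALDH1A1 and ALDH3A2, against 40.3% of all genes. The median log2 fold change of the 8 was 0.27 for siMENA11a against control (-0.01 over all genes tested), -0.19 for siMENA against control (0.04) and 0.43 for siMENA11a against siMENA (-0.05). The comparisons with control share their control libraries. The direction of calls over all genes moved with the scaling: 39.4% of those between siMENA11a and siMENA were higher, against 49.9% with median-ratio scaling and 49.1% with quantile normalization, and 55.6% of those of siMENA against control, against 43.8% and 48.0%. No call among the 8 genes changed direction with either scaling.

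**Figure D2:**
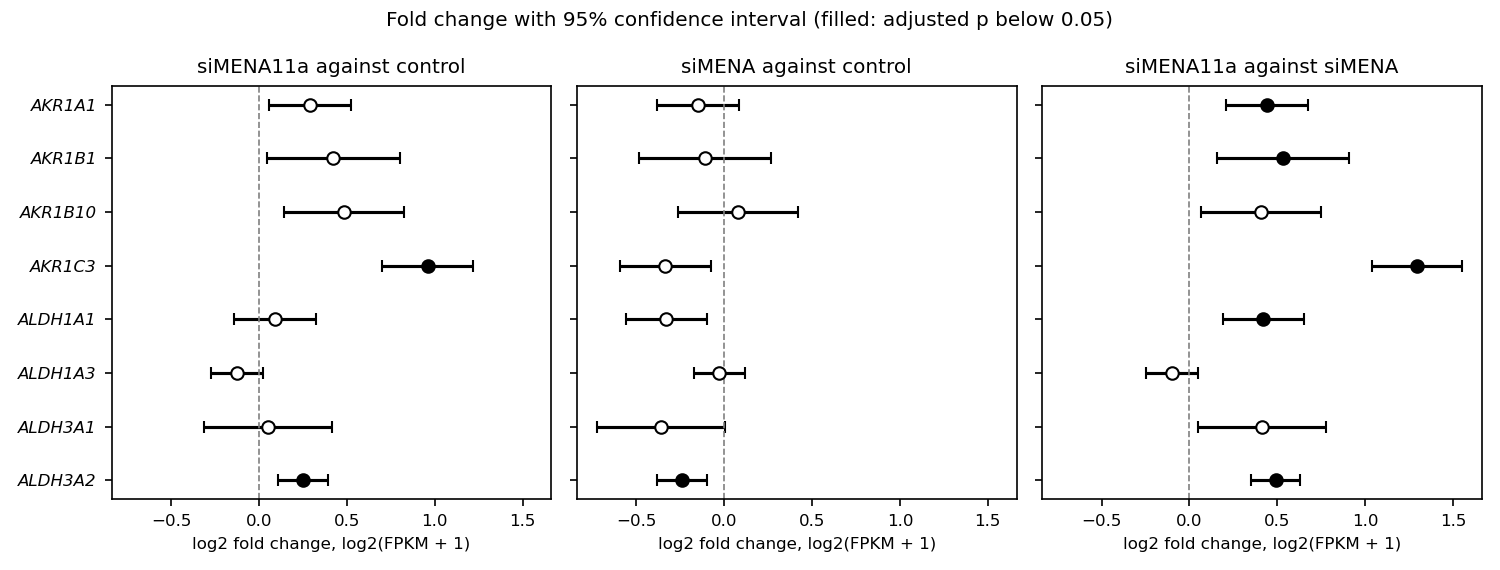
Log2 fold change on the log2(FPKM + 1) scale (horizontal axis) with the 95% confidence interval for the 8 tested genes in each comparison; filled points have an adjusted p below 0.05. In the panel of siMENA11a against siMENA 5 points are filled, all to the right of 0, and AKR1C3 lies farthest out at 1.29.

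Other genes of both superfamilies went in both directions. Of 11 further aldo-keto reductase genes, 6 were tested. With siMENA11a against control 1 rose (AKR1B15) and 1 fell, AKR7A2, a reductase of succinic semialdehyde and aflatoxin dialdehyde, by 0.22 (adjusted p 0.0240). For lower genes the background in this comparison was 11.3%. AKR7A2 averaged 21.1 ± 1.2 FPKM in siMENA11a, 28.9 ± 0.9 in siMENA and 24.7 ± 0.9 in control (SD). With siMENA against control AKR1B15 fell and AKR7A2 rose by 0.22 (adjusted p 0.0235), where 10.3% of all genes were called higher. The count of 1 higher gene with siMENA was 2 without siMENA11a replicate 2 or 3. Both AKR7A2 calls against control ended when 1 of several libraries was left out. With siMENA11a these were control replicate 2 (adjusted p 0.0846), control replicate 3 (0.0599) and siMENA11a replicate 2 (0.0588), and with siMENA control replicate 1 (0.0777), control replicate 3 (0.0851), siMENA replicate 1 (0.0912) and siMENA replicate 2 (0.0550). The log2 fold change of AKR7A2 in siMENA11a against siMENA was -0.44 (adjusted p 0.000329).

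Of 15 further aldehyde dehydrogenase genes, 12 were tested. In siMENA11a against siMENA 3 were higher and 3 lower, where 14.4% of all genes were called higher and 22.2% lower, and the 3 lower were 5 without siMENA11a replicate 2. Of the 3 higher, ALDH5A1 lost its call without siMENA replicate 2, siMENA11a replicate 1 or siMENA11a replicate 3 (adjusted p 0.0754, 0.0781 and 0.0595). Of the 3 lower, ALDH18A1 lost its call without siMENA replicate 1 (0.0685), with median-ratio scaling (0.0645) and with quantile normalization (0.0697). ALDH3B2, a relative of ALDH3A1, averaged 12.8 ± 1.1 FPKM in siMENA11a, 5.87 ± 0.26 in siMENA and 9.66 ± 1.49 in control. ALDH9A1, an enzyme of carnitine synthesis, averaged 49.5 ± 2.2 FPKM in siMENA11a, 28.4 ± 0.5 in siMENA and 45.4 ± 1.8 in control. The log2 fold changes of siMENA11a against siMENA were 1.00 for ALDH3B2 and 0.78 for ALDH9A1 (adjusted p 8.07e-05 and 1.12e-05). In the opposite direction went the mitochondrial enzymes ALDH4A1 of proline breakdown (-0.67, adjusted p 0.000209) and ALDH7A1 of lysine breakdown (-0.61, adjusted p 0.000545). Against control, siMENA11a gave 2 higher and 2 lower of 12 (8.16% and 11.3% of all genes). Each of these counts was 1 without control replicate 3, the higher also without control replicate 2 or siMENA11a replicate 1 and the lower also without control replicate 1. The rise of ALDH3B2 with siMENA11a was 0.38 (adjusted p 0.0284), and its adjusted p was 0.0983 without siMENA11a replicate 1, 0.0574 with only the groups compared, and 0.0831 and 0.0758 without control replicates 2 and 3. With siMENA against control 2 of 12 were higher and 3 lower (10.3% and 8.24% of all genes). Of the 3 lower, ALDH5A1 lost its call without control replicate 3 (adjusted p 0.0571) or siMENA replicate 2 (0.0501). The 2 higher, ALDH18A1 and ALDH3B1, named after their values were seen, were 0 without control replicate 2 or siMENA replicate 1 and 1 without control replicate 3, siMENA replicate 2, siMENA replicate 3 or siMENA11a replicate 1. With either scaling or without the variance trend 1 was higher, and with the replicate block, which the pairing check allowed here, 4. The fall of ALDH9A1 with siMENA was 0.66 on the log2 scale (SE 0.05, adjusted p 6.57e-05) and that of ALDH3B2 0.63 (SE 0.10, adjusted p 0.00318). The median over these 12 genes was 0.04 for siMENA11a and 0.05 for siMENA against control.

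**Figure D3:**
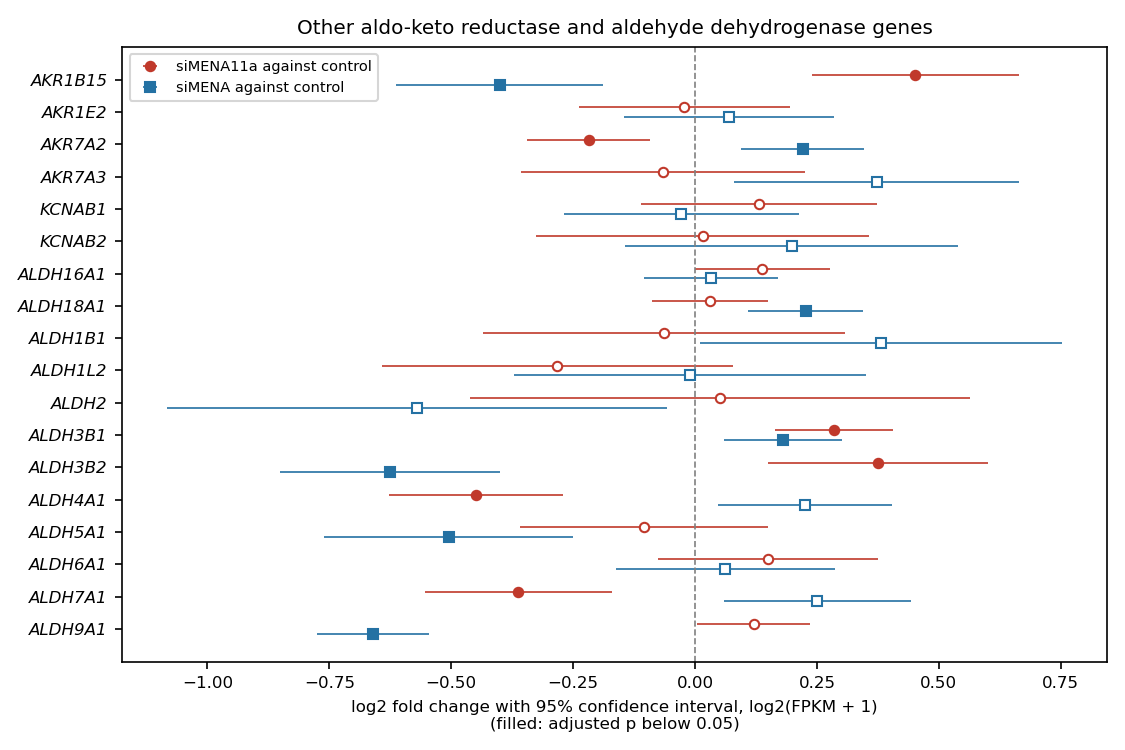
Log2 fold change on the log2(FPKM + 1) scale (horizontal axis) with the 95% confidence interval for the 6 further aldo-keto reductase and 12 further aldehyde dehydrogenase genes tested; circles are siMENA11a and squares siMENA, both against the same controls, and filled symbols have an adjusted p below 0.05. AKR1B15 and ALDH3B2 are filled on opposite sides of 0, ALDH3B2 for siMENA11a with a call that is lost without any of 3 single libraries, while ALDH9A1 is filled for siMENA alone, at -0.66.

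Of 27 genes of the NRF2 pathway listed and tested, 14 were higher and 1 lower with siMENA11a against control, where 8.16% of all genes were called higher and 11.3% lower, with a median log2 fold change of 0.28 against -0.01 over all genes. This list, like the others, was chosen with earlier results of these data known, so its counts beside those shares are a description. The 14 were 9 without control replicate 1 or without control replicate 3. NQO1, GCLM, GPX2, GSR and OSGIN1 were lost in both cases, with adjusted p of 0.0546 to 0.107. SLC7A11, the cystine importer, averaged 19.98 ± 7.4 FPKM in siMENA11a, 6.74 ± 0.34 in siMENA and 8.70 ± 1.57 in control. GCLC, the catalytic subunit of the rate-limiting enzyme of glutathione synthesis, averaged 11.1 ± 0.7 FPKM in siMENA11a, 6.99 ± 0.02 in siMENA and 5.91 ± 0.62 in control. SLC7A11 rose by 1.07 (adjusted p 0.00639), GCLC by 0.81 (adjusted p 0.000160) and the autophagy receptor SQSTM1 by 0.77 (adjusted p 0.00358). The 1 lower gene was KEAP1, at 29.4 ± 1.3 FPKM in siMENA11a, 38.9 ± 2.5 in siMENA and 39.1 ± 2.0 in control (log2 fold change -0.40, adjusted p 0.00250). BACH1, among the 14 higher, was at 32.8 ± 0.7 FPKM in siMENA11a, 19.4 ± 0.05 in siMENA and 23.9 ± 2.0 in control. Its log2 fold change against control ran from 0.38 to 0.50 with siMENA11a and from -0.35 to -0.23 with siMENA over the settings. Both calls held in all 19 alternatives that included it. KEAP1 and BACH1 were named after their values were seen. With siMENA against control 4 of 27 were higher and 2 lower (10.3% and 8.24% of all genes), with a median of -0.000689. The count of higher genes was 1 without siMENA replicate 1 or control replicate 3 and 2 without siMENA replicate 2 or control replicate 1. Without control replicate 1, NQO1, TXN and UGDH of the 4 lost their calls (adjusted p 0.0537, 0.132 and 0.0705), which left HMOX1. The other gene counted there was not among the 4. The 2 lower were 1 without siMENA replicate 1, siMENA replicate 2, control replicate 1, control replicate 2 or siMENA11a replicate 1, and with only the groups compared. The heme oxygenase HMOX1 had the largest of these rises, 0.68 (adjusted p 0.00194), and averaged 22.2 ± 1.1 FPKM in siMENA11a, 39.6 ± 5.7 in siMENA and 24.2 ± 2.3 in control. In siMENA11a against siMENA 15 of 27 were higher and 3 lower (14.4% and 22.2% of all genes). Of the 15, NFE2L2 lost its call in 13 of 20 alternatives and TKT in 6 of 19. ME1 lost it in 4 of 20 and PIR in 1 of 19. All of these calls ended without siMENA replicate 2 (adjusted p 0.131, 0.135, 0.113 and 0.0522 in the same order). When repaired genes were removed 11 of the 27 could be tested, and 7 were higher in siMENA11a against control, 7 in siMENA11a against siMENA and 0 in siMENA against control.

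**Figure D4:**
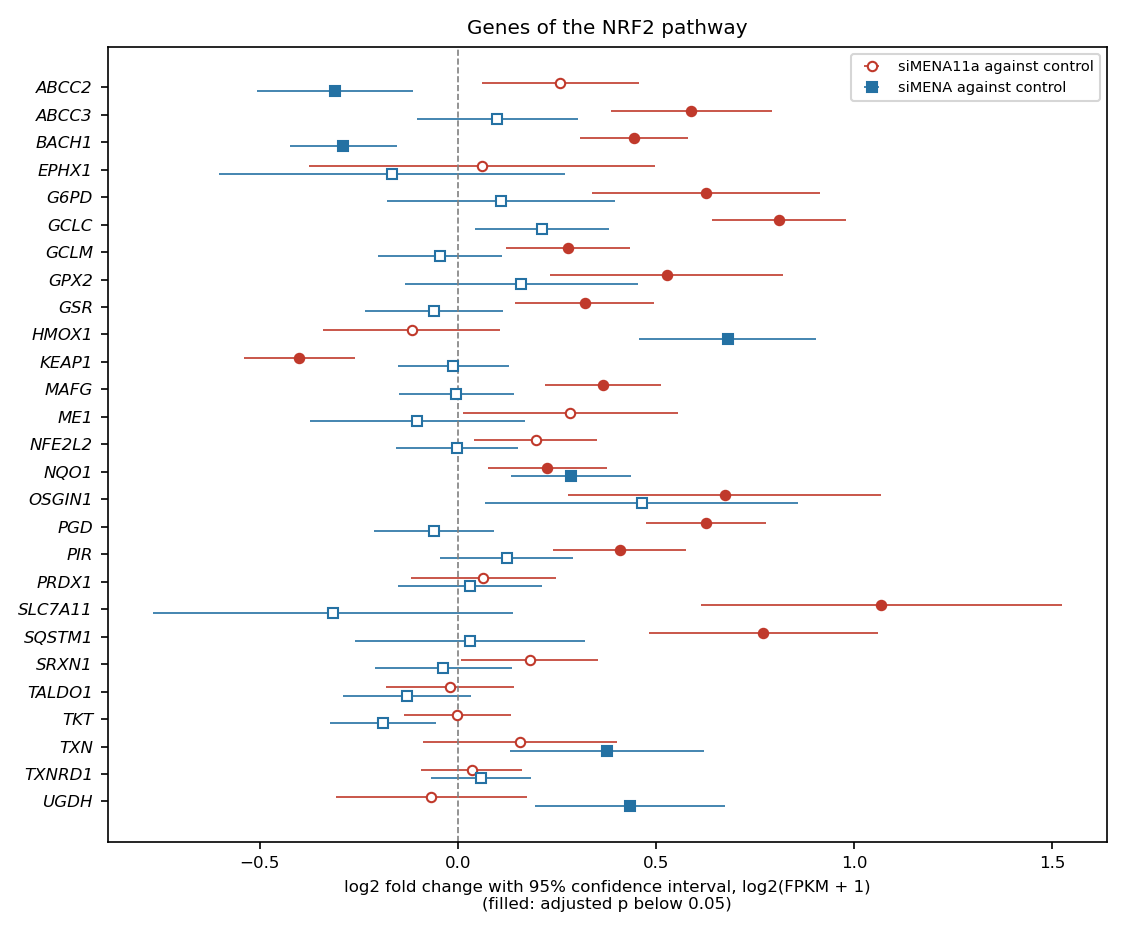
Log2 fold change on the log2(FPKM + 1) scale (horizontal axis) with the 95% confidence interval for 27 genes of the NRF2 pathway; circles are siMENA11a and squares siMENA, both against the same controls, and filled symbols have an adjusted p below 0.05. SLC7A11 lies farthest right for siMENA11a at 1.07 and HMOX1 for siMENA at 0.68.

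Genes that act beside these enzymes went in both directions. Of 16 tested genes of retinoid handling, 1 was higher and 3 lower with siMENA11a against control (8.16% and 11.3% of all genes), and 5 higher and 1 lower with siMENA (10.3% and 8.24%). The 3 lower were 1 without control replicate 2, where CRABP2 and ADH5 had adjusted p of 0.0981 and 0.0510. CRABP2 lost its call in 10 of 19 alternatives (adjusted p 0.0527 to 0.111), among them without any 1 control or siMENA library. Of the 5 higher with siMENA, CRABP1 lost its call in 6 of 19 (0.0517 to 0.107). The 1 lower with siMENA was 2 with the replicate block, either scaling or a filter of 2 FPKM, and without siMENA replicate 3 or siMENA11a replicate 3. RDH10, which makes the retinal that ALDH1A enzymes use, averaged 8.14 ± 1.00 FPKM in siMENA11a, 16.4 ± 1.2 in siMENA and 10.9 ± 0.1 in control, a fall by 0.39 and a rise by 0.54 on the log2 scale (adjusted p 0.0118 and 0.00289). DHRS9, a retinol dehydrogenase, averaged 38.7 ± 2.3 FPKM in siMENA11a, 22.8 ± 0.6 in siMENA and 24.7 ± 1.1 in control and rose by 0.63 with siMENA11a (adjusted p 0.000154). CYP26A1, which breaks down retinoic acid, averaged 1.72 ± 0.12 FPKM in siMENA11a, 3.04 ± 0.47 in siMENA and 1.63 ± 0.30 in control and rose by 0.62 with siMENA (adjusted p 0.00515). RDH11 was the 1 lower with siMENA, at 43.5 ± 0.4 FPKM in siMENA11a, 28.6 ± 0.5 in siMENA and 46.2 ± 1.4 in control. Its log2 fold change with siMENA was -0.70 to -0.65 over the settings. In siMENA11a against siMENA 2 of 16 were higher and 8 lower (14.4% and 22.2% of all genes), with a median of -0.22 against -0.05. Of the 8, RARB, ADH5 and DHRS3 lost their calls in 13, 5 and 1 of the alternatives.

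Of 8 tested short-chain reductases of carbonyls, 1 was higher and 1 lower in each silenced group against control, where all genes gave 8.16% higher and 11.3% lower with siMENA11a and 10.3% and 8.24% with siMENA. With siMENA11a these were CBR4 and DCXR, and both counts were 0 without control replicate 1 (adjusted p 0.0511 and 0.124). DCXR also failed when any other library was left out (0.0519 to 0.130), with either scaling (0.0644 and 0.0614), without the variance trend (0.0692) and with only the groups compared (0.0745). With siMENA, DHRS2 rose by 2.73 (adjusted p 9.73e-06) and CBR3 fell by 0.69 (adjusted p 0.00849). Of 3 tested partners of the polyol and methylglyoxal pathways, none was higher and 1 lower with siMENA11a against control, and 2 higher with siMENA, too few genes to set against the shares of all genes called (11.3% lower and 10.3% higher). The 2 were 1 without siMENA replicate 1 or control replicate 3, where SORD had adjusted p of 0.0547 and 0.0529. GLO1, the glyoxalase that clears methylglyoxal, averaged 43.0 ± 4.2 FPKM in siMENA11a, 79.7 ± 3.0 in siMENA and 59.4 ± 1.5 in control (log2 fold changes against control -0.46 and 0.42, adjusted p 0.00196 and 0.00348). Fatty aldehydes are the substrates of ALDH3A2. Of 7 genes of the sphingolipid and fatty aldehyde pathway, not all of which act on an aldehyde, 1 was lower with siMENA11a and 1 higher with siMENA. Of all genes 11.3% were called lower and 10.3% higher in these comparisons, and each of the 2 calls ended when 1 library was left out. The 1 lower was 2 without siMENA11a replicate 3 or control replicate 1 and with a filter of 2 FPKM. The 1 higher was 2 with the replicate block, with only the groups compared and without siMENA11a replicate 3. HACL1 fell by 0.27 with siMENA11a (adjusted p 0.0156), and its adjusted p was 0.0572 without siMENA11a replicate 1 and 0.0533 without control replicate 2. PHYH rose by 0.36 with siMENA (adjusted p 0.0196), and its adjusted p was 0.0636 without siMENA replicate 3 and 0.0559, 0.0538 and 0.0558 without control replicates 1, 2 and 3. Of 9 genes of the aryl hydrocarbon and glucocorticoid receptors, 4 were higher with siMENA11a and 1 with siMENA (8.16% and 10.3% of all genes). The 1 was CYP1B1, lost without siMENA replicate 2 (adjusted p 0.0519) or control replicate 3 (0.0578). CYP1A1, of the 4, had an adjusted p of 0.0401 with siMENA11a and lost its call in 8 alternatives (0.0531 to 0.1197), among them without control replicate 1 (0.1197), control replicate 3 (0.105), siMENA11a replicate 1 (0.0586), siMENA11a replicate 2 (0.0960) and each siMENA library. TIPARP, a target of the aryl hydrocarbon receptor, rose by 0.51 with siMENA11a (adjusted p 0.000784).

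The genes whose levels were most like those of AKR1C3 over the 9 libraries were ECM2 (Pearson r 0.985), the ubiquitin ligase ITCH (0.983) and TMEM33 (0.978). AKR1C3 was used because it had the largest SD of the AKR genes on the log2(FPKM + 1) scale, 0.59. TMEM33 was at 30.5, 29.5 and 31.6 FPKM in siMENA11a, 17.9, 19.1 and 20.4 FPKM in siMENA and 20.9, 22.2 and 21.8 FPKM in control libraries, the same order of groups with no overlap. For ALDH3A1, with the largest SD of the ALDH genes (0.28), they were CHST15 (0.936), CTIF (0.926) and UBE2H (0.919). These are descriptions over 9 libraries that share their groups and scaling.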

How the data were processed

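RNA of 9 H1650 libraries was depleted of ribosomal RNA and read as stranded pairs of 75 bases, per the labels' protocols. The authors deposited FPKM in a single table, and the submitters' processing notes name hg19. Which aligner and quantification tool were used is not given in the sources used here.

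Some values had lost their decimal point. Whole numbers at least 100-fold above the median of their gene's other values, or in genes without any decimal value, were divided by 1000 (11524 values, 7.91% of those listed). Among them were 9 of 90 values of the genes described, in AKR1A1, AKR1B1 and ALDH3A2. All 1286 genes lacking a value in some library were set aside. The 13273 genes whose mean reached 0.5 FPKM were compared as log2(FPKM + 1) in one limma 3.58.1 fit (R 4.3.3) of all 9 libraries by group, with a variance trend and 6 residual degrees of freedom. Benjamini-Hochberg adjustment ran over all of them, with a threshold of 0.05. The procedure was tested on simulated data. Exact permutation tests and 75-base comparisons used Python 3.11.15. P-values measure the spread between these cultures of a single line.

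Replicate numbers are shared between groups. Deviations from the group means correlated between same-numbered siMENA and control libraries at 0.124, 0.378 and 0.196, all over 0.1, which was taken as pairing. The correlations were 0.206, 0.425 and -0.0302 for siMENA11a and control and 0.0864, 0.309 and 0.0203 for siMENA11a and siMENA, which was not. Libraries of unlike number correlated at -0.243 to 0.113 for siMENA and control and -0.425 to 0.321 for siMENA11a and control. For siMENA11a and siMENA they correlated at -0.240 to 0.205. Some unlike numbers thus also exceeded 0.1, so this cut alone does not establish which libraries are pairs. Values and counts are from the fit without a block in all comparisons, unless the block is named. The block was fitted over all 9 libraries, those of siMENA11a included.

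All 10 genes are named. From each other list up to 4 genes that passed, with the largest change, may be named, with exceptions marked. Genes of like pattern are the 3 of highest Pearson correlation. The genes and lists were chosen with earlier results of these data known.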

Additional observations from a re-analysis of the deposited data

How the results depend on the processing

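AKR1C1, AKR1C2, AKR1C3, ALDH1A1 and ALDH3A1 averaged under 1.5 FPKM and their read numbers are unknown, which limits their precision. Leaving out genes with a repaired value, which removes AKR1A1, AKR1B1 and ALDH3A2, gave 1293 genes passing for siMENA against control, 1362 for siMENA11a against control and 2716 for siMENA11a against siMENA, where fewer genes were tested. Of the genes described, 0, 1 and 2 then passed in these comparisons, and 2 by the F test over the groups. A filter of 2 FPKM left 3 passing between siMENA11a and siMENA and 2 by the F test. For siMENA against control 3 passed with a pseudocount of 0.1, and 2 with a pseudocount of 0.5, no filter, either scaling, no variance trend, the replicate block, or missing values kept, the last an alternative added after the data were seen. With the replicate number as a block, 5 passed for siMENA11a against control, where the numbers were not taken as pairs; AKR1A1 and AKR1B1 then had adjusted p of 0.0106 and 0.00167, and AKR1B10 0.0243. Between siMENA11a and siMENA the block gave AKR1B10 an adjusted p of 0.0312. Over all genes the block gave 3149, 3431 and 5648 calls. Among the 8 genes it changed the call of ALDH1A1 alone in siMENA against control, the comparison taken as paired.

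Leaving out 1 library at a time gave 1346 to 2902 genes for siMENA against control and 1493 to 2483 for siMENA11a against control. The first count was 1346 without siMENA replicate 1, 1572 without siMENA replicate 2, 1555 without control replicate 1 and 1446 without control replicate 3, and the second 1493 without control replicate 3. Of the genes described, 0 to 2 passed for siMENA against control and 1 to 3 for siMENA11a against control. Log2 fold changes that turned sign were small. For siMENA against control they ran from -0.24 to 0.0435 for AKR1B1, -0.0924 to 0.25 for AKR1B10 and -0.0641 to 0.0317 for ALDH1A3, which turned without siMENA replicate 2 (0.0190) or control replicate 3. For siMENA11a against control ALDH3A1 ran from -0.0228 to 0.16, with -0.0199 without control replicate 2. The cause of these changes was not tested.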
